A study of Mus musculus with 60 samples.

Results

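Small nucleolar RNA (snoRNA) host genes were followed through every experiment of a study that removed CTCF or the cohesin subunit RAD21 from mouse cells and measured newly made RNA. The genes were Snhg1, Snhg3, Snhg8, Snhg12, Snhg15, Snhg17 and Gas5, and members were taken as the rows of the deposited count table whose transcript identifier carried one of those 7 symbols in GENCODE M21. Of the 7 genes, 6 had a row among the 27665 rows of the table; Snhg3 matched none and was not analysed here. Snhg17 was selected on its measured level in these data, which was lower after loss of CTCF, to be set against the other 5, which were chosen by name; which CTCF comparison showed this is not stated. Its values, and those of Gm23925, a short row inside it, are therefore given without a test in every CTCF depletion, and the 6 h depletion of CTCF is given without a test for all members.

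RNA was labelled with 0.5 mM 5-ethynyl uridine for 20 min, captured and sequenced (EU-seq) in 60 libraries. All mouse embryonic stem cells (mESCs) were E14 cells with a degron, a tag that lets a small molecule trigger breakdown of the tagged protein, so the untreated controls carried the same tagged alleles. GFP-AID-Ctcf cells (CTCF-AID) received 500 µM of the auxin IAA for 6 h, with 2 control and 2 IAA libraries of an unstranded kit and 2 and 2 of a stranded kit. CTCF-YF-AA cells carried Y226A and F228A in CTCF, fused to GFP-FKBP12F36V, and received 200 nM dTAG-13 for 2 h or 4 h (2 libraries each, 2 controls). In the dN/dC line, one Ctcf allele encoded bTAG-delN-CTCF, which AGB1 degrades, and the other dTAG-CTCF-delC, which dTAG-13 degrades; 100 nM AGB1, 100 nM dTAG-13 or both were given for 2 h (2 libraries each, 2 controls), doses that follow the sample labels, whereas the column names of the count table give 200 nM dTAG-13. GFP-AID-Rad21 mESCs (RAD21-AID) received 500 µM IAA for 4 h in an initial experiment (2 control and 2 IAA libraries) and an additional one (12 and 12). Neural progenitor cells (NPCs) derived from the RAD21-AID mESCs received 500 µM IAA for 1 h, 2 h or 4 h, or 10 µM A-485, an inhibitor of the CBP/p300 acetyltransferases, for 1 h (2 libraries each, 2 controls). Each genotype was represented by one line, nothing in the labels says that libraries came from separate cultures, and p-values then measure only the spread between these libraries. The 2 times of CTCF-YF-AA, the 3 treatments of the dN/dC line and the 4 treatments of NPCs each shared their controls.

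A snoRNA host gene is transcribed as a longer RNA whose introns carry snoRNAs, which are trimmed out after splicing and bound by snoRNP proteins. Box C/D snoRNAs guide ribose methylation, and box H/ACA snoRNAs guide pseudouridylation, mainly of ribosomal RNA, while the spliced host RNA is often removed by nonsense-mediated decay (NMD), so that steady-state RNA shows little of how strongly such a gene is transcribed. Many of these genes start within a run of pyrimidines, a feature shared with genes for ribosomal proteins. EU-seq reads the newly made transcript, introns included, and a count over the gene body does not separate a host transcript from the snoRNAs inside it.

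Libraries held between 4027449 and 21898781 counts, and no pair of replicates agreed within sampling noise (chi-square per degree of freedom between 1.46 and 41.6 over 151 pairs). Over all columns, Snhg8 had the fewest reads of the 6 genes at its maximum (173 to 1127), whereas Gas5 had 1523 to 15639 and Snhg17 179 to 4010. All 7 mESC markers were detected, with a summed level of 6569 to 7205 TPM (counts per base, scaled to a fixed sum) in the 12 additional mESC controls and 315.5 to 322.1 in the 2 NPC controls, and the 7 NPC markers summed to 171 to 204 and 2600 to 2822 TPM. Ctcf and Rad21 transcripts moved by no more than 0.13 on the log2 scale in the degron comparisons, which act on protein, so RNA does not check these labels. In bulk samples, fewer cells of a type and less RNA per cell cannot be told apart.

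The 6 hosts differed in size and cargo. Positions are GRCm38, from GENCODE M21. Snhg17 was the longest, at chr2:158355307-158361510 on the minus strand, with 6204 bases, 6 exons and 3 snoRNAs, all intronic. Gas5 (chr1:161034607-161038539, plus strand, 3933 bases, 8 exons) carried 9 entries typed as snoRNA, and Snhg1 (chr19:8723475-8726443, plus strand, 2969 bases, 10 exons) carried 8. Snhg12 (chr4:132308623-132311024, plus strand, 2402 bases, 4 exons) held 4, of which Snora61 lay in an exon of the chosen transcript. Snhg15 (chr11:6525591-6528760, minus strand, 3170 bases, 4 exons) and Snhg8 (chr3:123507552-123508404, minus strand, 853 bases, 3 exons) held 1 each, Snora9 and Snora24. Small RNA sequence made up 20.9% of the gene body in Snhg1, 19.6% in Snhg12, 17.0% in Gas5, 15.2% in Snhg8, 6.06% in Snhg17 and 4.20% in Snhg15. Snhg17 thus had little small RNA for its length, next to Snhg15.

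**Figure D1:**
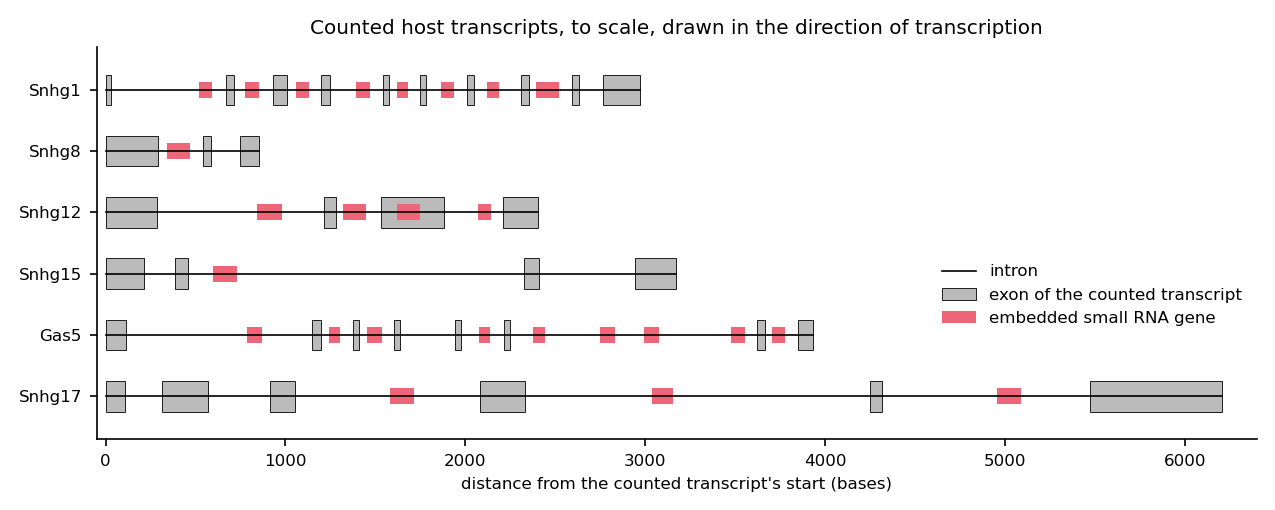
Maps of the 6 host transcripts, drawn to scale with distance from the transcript start in bases on the x axis, exons in grey and embedded snoRNAs in red. Snhg17, the longest at 6204 bases, holds 3 intronic snoRNAs, whereas Gas5 holds 9 and Snhg1 8.

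The snoRNAs of Snhg17 are printed because one of them has a count row of its own, and their likeness bears on how its reads can be read. The letters are the GRCm38 genome at the GENCODE M21 positions, on the minus strand, with the ACA box near the 3′ end in capitals.
Gm24411 (chr2:158356424-158356554): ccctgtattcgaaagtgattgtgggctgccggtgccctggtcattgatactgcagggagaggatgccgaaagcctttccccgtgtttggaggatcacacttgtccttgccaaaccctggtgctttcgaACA
Gm26003 (chr2:158358360-158358472): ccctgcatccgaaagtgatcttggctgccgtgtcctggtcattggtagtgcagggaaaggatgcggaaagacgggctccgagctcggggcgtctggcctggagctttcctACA
Gm23925 (chr2:158359798-158359929): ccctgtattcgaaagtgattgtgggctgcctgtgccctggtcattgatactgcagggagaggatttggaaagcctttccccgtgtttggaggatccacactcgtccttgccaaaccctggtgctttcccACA
All 3 ended in ACA and shared their first bases. Gm23925 and Gm24411 were identical at 124 of 132 aligned positions (93.9%), whereas Gm26003 matched Gm24411 at 70.2% and Gm23925 at 69.7%. Both hosts with a single snoRNA, Snhg8 and Snhg15, also carried one with an ACA box near its 3′ end, printed for comparison.
Snora24 in Snhg8 (chr3:123507937-123508066, minus strand): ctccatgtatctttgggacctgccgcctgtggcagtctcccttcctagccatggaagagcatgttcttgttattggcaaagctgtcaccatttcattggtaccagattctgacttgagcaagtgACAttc
Snora9 in Snhg15 (chr11:6528033-6528165, minus strand): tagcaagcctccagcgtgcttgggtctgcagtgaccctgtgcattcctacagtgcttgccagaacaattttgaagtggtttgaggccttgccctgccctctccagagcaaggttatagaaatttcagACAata

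The promoter of Snhg17 is printed because the gene's level depended on CTCF, a zinc-finger protein that binds a GC-rich motif. The 300 bases run from 250 before to 50 after a RefSeq start (GRCm38.p6), on the minus strand, with GGGGGCGC, letters that occur within the CTCF consensus, in capitals.
Snhg17 (chr2:158361473-158361772): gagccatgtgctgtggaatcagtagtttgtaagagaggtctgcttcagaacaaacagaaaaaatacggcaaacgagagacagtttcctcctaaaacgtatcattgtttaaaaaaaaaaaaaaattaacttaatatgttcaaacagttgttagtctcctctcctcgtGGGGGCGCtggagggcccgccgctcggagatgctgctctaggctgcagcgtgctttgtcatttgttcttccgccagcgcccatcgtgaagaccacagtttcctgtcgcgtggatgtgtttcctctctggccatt
GGGGGCGC lay 84 bases before this start and 97 bases before the other RefSeq start, at position 158361509. Searched on both strands of 32851 promoter windows from 27025 genes, GGGGGCGC occurred in 3.34% of windows and in no window of the other 5 members. It was chosen after the sequence had been seen, and it can overlap the other strings searched. A longer degenerate form of the consensus occurred in 8.61% of windows and, among members, in that of Snhg15. AGNNGGCGC occurred in 7.23% and, among members, in that of Snhg12, and AGGGGGC in 10.6% and, among members, in both windows of Gas5. A match is a description of the letters and not a measured site. The Snhg17 windows also had the lowest GC content among the members (47% and 47.3%, against 53% to 73.7%).

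The start regions are printed for the pyrimidine run, which many hosts share. Each spans 20 bases on either side of a RefSeq start, and capitals mark the longest run of C and T with at least one base no more than 5 bases from the start.
Snhg1 (start 8723487): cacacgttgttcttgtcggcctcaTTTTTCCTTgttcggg
Snhg12 (start 132308678): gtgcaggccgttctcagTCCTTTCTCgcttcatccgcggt
Snhg8 (start 123508336): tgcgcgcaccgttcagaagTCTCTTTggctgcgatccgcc
Gas5 (start 161035166): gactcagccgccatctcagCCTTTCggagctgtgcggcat
Gas5 (start 161034601): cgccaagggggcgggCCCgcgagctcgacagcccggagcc
Snhg17 (start 158361509): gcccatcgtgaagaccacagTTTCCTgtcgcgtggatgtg
Snhg17 (start 158361522): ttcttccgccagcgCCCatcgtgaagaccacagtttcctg
Snhg15 (start 6528760): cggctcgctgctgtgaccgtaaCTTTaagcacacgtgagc
The run was 9 bases in Snhg1 and Snhg12, 7 in Snhg8, 6 at one start of Gas5 and one of Snhg17, 4 in Snhg15, and 3 at the other starts of Gas5 and Snhg17. Gas5 and Snhg17 thus each had a start with a short and one with a longer run.

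Levels between genes were compared per length, as TPM over the gene body. Snhg17 had the lowest level of the 6 in each of the 7 control groups. In the 12 additional RAD21-AID mESC controls Gas5 was at 2703 ± 84.2 TPM (SD, n = 12), ranging from 2573 to 2837, and Snhg1 at 2541 ± 98.5, ranging from 2432 to 2800. Their ranges overlapped. Snhg15 followed at 1142 ± 36.4 (1086 to 1204), then Snhg12 at 919 ± 32.0 (884 to 989), Snhg8 at 786 ± 32.4 (763 to 879) and Snhg17 at 547 ± 16.2 (511 to 566). From Snhg15 to Snhg12, and from Snhg8 to Snhg17, the ranges were apart, while Snhg12 and Snhg8 were separated by less than the range of either. In the 2 NPC controls the order changed. Snhg15 was highest at 1095 and 1115 TPM, followed by Snhg1 at 912 and 982 and Gas5 at 740 and 776. Snhg8 was at 494 and 504, Snhg12 at 383 and 387, and Snhg17 at 313 and 323. No neighbours in this order overlapped, with 2 libraries each. Mean Snhg17 TPM was 519.7 in unstranded and 695.5 in stranded CTCF-AID controls, 523.3 in CTCF-YF-AA, 356.7 in dN/dC and 479.4 in initial RAD21-AID controls, so that control level varied between lines and library kits.

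**Figure D2:**
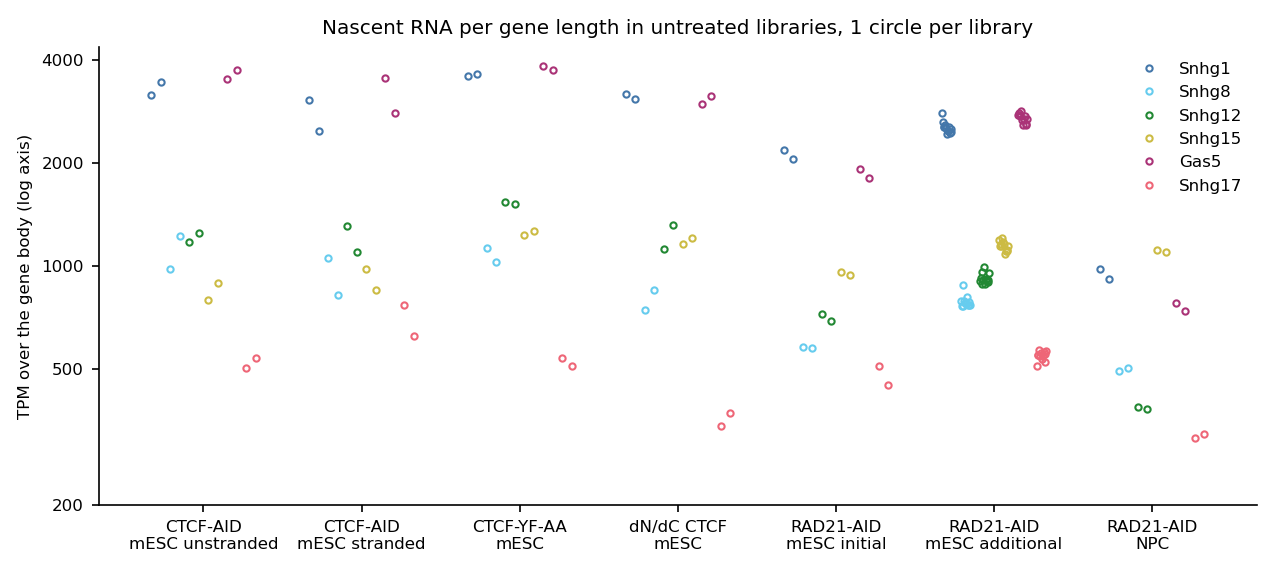
Gene body TPM (log axis) of the 6 host genes in the control libraries of 7 groups, each point one library. Snhg17 lies lowest in every group, and the points of Gas5 and Snhg1 lie lower in NPC than in mESC groups, while those of Snhg15 do not.

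Snhg17 was the only member that lay several-fold below its controls after loss of CTCF. The values that follow are normalised CPM (counts per fixed library size), scaled by TMM (trimmed mean of M values) and, for treated libraries, by the median change of expressed genes, and they compare libraries for one gene. In CTCF-AID cells Snhg17 was at 233 and 261 CPM in the unstranded controls and at 286 and 195 in the stranded controls. After 6 h of IAA it was at 24.9 and 21.2 in unstranded and 31.4 and 34.0 in stranded libraries. All 4 depleted libraries lay far below all 4 controls, and the log2 fold change was -3.15 (SE 0.17, n = 4 and 4), or 8.86-fold lower. It was -3.41 in the unstranded and -2.88 in the stranded libraries alone. The reads behind these values were 3155, 3346, 2759 and 4010 in the controls and 366, 272, 245 and 603 after IAA.

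**Figure D3:**
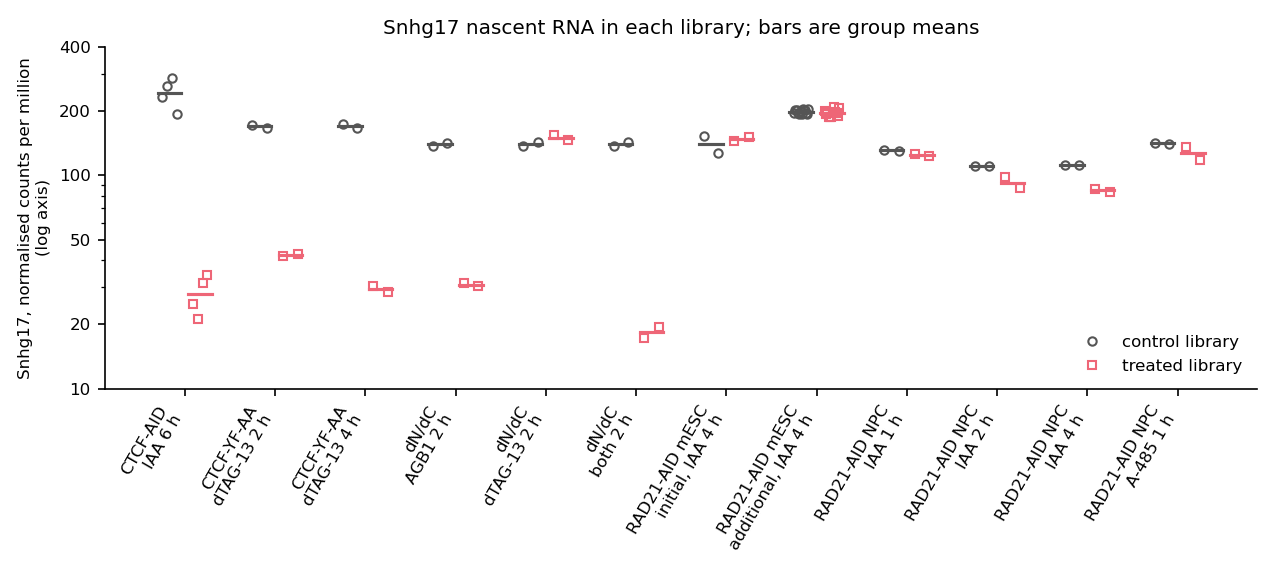
Normalised CPM of Snhg17 in every library (log axis) for 12 comparisons, controls as circles and treated libraries as squares, with bars at group means. Treated libraries lie far below controls in each CTCF comparison but dTAG-13 in the dN/dC line, where they were at 154 and 147 CPM.

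The mutant line gave a time course of the same gene. CTCF-YF-AA carries substitutions in the part of CTCF that contacts cohesin, so cohesin contact is impaired in the control cells too. Snhg17 was at 173 and 167 CPM in these controls, at 41.8 and 42.6 after 2 h of dTAG-13, and at 30.4 and 28.5 after 4 h. No library of one time overlapped another group. The log2 fold change was -2.0 at 2 h (SE 0.09, 4.01-fold lower) and -2.53 at 4 h (SE 0.09, 5.79-fold lower), against the same 2 controls.

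In the dN/dC line the allele that was degraded separated the response of Snhg17. AGB1 removes the CTCF without its N-terminal part and leaves the CTCF without its C-terminal part, and dTAG-13 does the reverse. Controls were at 137 and 143 CPM. With AGB1 Snhg17 was at 31.2 and 30.3, whereas with dTAG-13 it was at 154 and 147. With both it was at 17.2 and 19.5. The AGB1 and combined libraries lay below, and the dTAG-13 libraries slightly above, both controls. The log2 fold changes were -2.18 (SE 0.07, 4.55-fold lower), 0.10 (SE 0.06) and -2.94 (SE 0.08, 7.65-fold lower), and the direct difference of AGB1 from dTAG-13 was -2.29 (SE 0.07).

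The row inside Snhg17 lay below its controls where its host did. Gm23925, at chr2:158359797-158359928 on the same strand, covers 2.13% of the Snhg17 body, and its transcript is typed as a long noncoding RNA. GENCODE has a second entry of the same name, the snoRNA printed above, which is shifted by 1 base against this row and overlaps it at all other bases. It had few reads, 5 to 175 per column, and how reads that lie on both rows were counted is not stated. In CTCF-AID it had 159, 134, 110 and 175 reads in controls and 18, 9, 8 and 22 after IAA, in the order of the host's values. Every depleted library was lower than every control, and the log2 fold change was -3.30 (SE 0.24). It was -1.25 (SE 0.41) and -2.47 (SE 0.43) after 2 h and 4 h in CTCF-YF-AA, -2.47 (SE 0.31) with AGB1, 0.09 (SE 0.20) with dTAG-13 and -3.05 (SE 0.34) with both. Host and embedded row thus had the same direction in these comparisons, with the widest gap at 2 h in CTCF-YF-AA, where the embedded row rested on 21 and 69 control and 19 and 13 treated reads. The 2 rows are not independent, since one lies in the other. Per length, Gm23925 was at 1142.5 TPM in the additional mESC controls, above the 547 of its host.

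The other 5 hosts differed from their controls by at most 0.27 on the log2 scale when CTCF was removed in CTCF-AID. Gas5 was at 1038 and 1152 CPM in unstranded and 837 and 553 in stranded controls, and at 1049 and 1218, and 853 and 629, after IAA. Snhg1 was at 702, 803, 546 and 371 and then at 664, 834, 527 and 373. Groups overlapped, and libraries differed more by kit and replicate than by IAA. Against the control with its own number and kit, each IAA library was higher for Gas5, Snhg8 and Snhg12 (4 of 4 pairs) and lower for Snhg15 (4 of 4), while Snhg1 was higher in 2 of 4. These pairs were compared on CPM without TMM or centring. The share of all genes with every pair in one direction is not given here, so the counts have no background. The log2 fold changes were 0.07 (SE 0.15) for Gas5, -0.02 (SE 0.16) for Snhg1, 0.20 (SE 0.18) for Snhg8, 0.27 (SE 0.14) for Snhg12 and -0.06 (SE 0.14) for Snhg15. Snhg12, the highest of these, was at 211, 235, 188 and 133 CPM and then at 249, 295, 219 and 165.

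In the other CTCF depletions these 5 genes could be tested, by edgeR's quasi-likelihood F test with Benjamini-Hochberg adjustment over all genes tested. None of the 5 had an adjusted p under 0.05 in any of the 5 comparisons, nor by DESeq2. At an unadjusted edgeR p under 0.05 the count was 1 and 2 after 2 h and 4 h in CTCF-YF-AA, 0 with AGB1, 0 with dTAG-13 and 1 with both. The share of all genes at an unadjusted p under 0.05 is not given, here or for later counts of this kind. By adjusted p in edgeR, 3.94%, 4.99%, 2.14%, 0.0808% and 6.59% of all genes passed in the same order, so that 0 of 5 lies close to the background in each. After 2 h in CTCF-YF-AA, Snhg12 was at 192 and 193 CPM in controls and at 209 and 217 after dTAG-13. Both treated libraries were higher, by 0.15 on the log2 scale, with an adjusted p of 0.287 in edgeR. After 4 h, Snhg15 was at 204 and 213 and then at 187 and 193 (log2 fold change -0.13, edgeR adjusted p 0.176), and Snhg1 was at 554 and 570 and then at 521 and 530 (-0.10, adjusted p 0.168). Both sets were lower without overlap and did not pass. The share of all genes with groups apart is not given here. In the dN/dC line the 5 log2 fold changes ranged from -0.03 to 0.05 with AGB1, from -0.00 to 0.09 with dTAG-13 and from -0.03 to 0.13 with both. Gas5 was the highest with both, at 754 and 760 CPM in controls and 865 and 793 after treatment. AGB1 differed from dTAG-13 by -0.07 to -0.01, with edgeR adjusted p from 0.468 to 0.952, where 1.92% of genes passed.

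**Figure D4:**
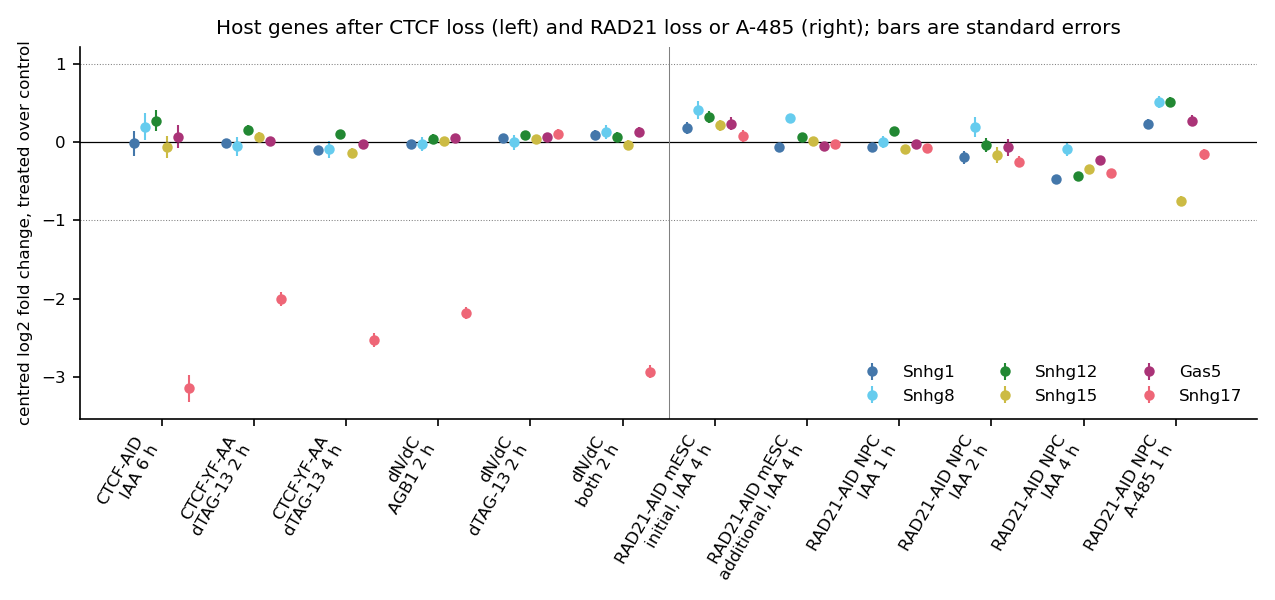
Log2 fold change (centred on expressed genes) with its standard error for the 6 host genes in 12 comparisons. Snhg17 lies between -3.15 and -2.0 in 5 CTCF comparisons, where the other 5 lie between -0.13 and 0.27.

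Loss of RAD21 in mESCs left Snhg17 close to its controls and shifted some other hosts slightly. In the additional experiment Snhg17 was at 193, 198 and 205 CPM (lowest, median and highest of 12 controls) and at 187, 196 and 209 after 4 h of IAA. The ranges overlapped almost fully, and the log2 fold change was -0.02 (edgeR adjusted p 0.132). Snhg8, the host of Snora24, rose from 36.2, 38.7 and 44.6 to 43.1, 46.6 and 62.8, and 10 of 12 IAA libraries lay above the highest control. This was a rise of 0.30 on the log2 scale (SE 0.04, n = 12 and 12, adjusted p 1.43e-08 by edgeR). Snhg12 rose by 0.07 (adjusted p 0.0375 in edgeR), from 118, 130 and 137 to 124, 136 and 150. Snhg1 fell by 0.07 (adjusted p 0.0143), from 413, 438.5 and 515 to 389, 411 and 495, with 7 IAA libraries below the lowest control. Gas5 fell by 0.06 (edgeR adjusted p 0.00813), from 582, 625 and 671 to 575, 596 and 671, and Snhg15 was at 200, 213 and 233 and then at 200, 213 and 242 (0.02, adjusted p 0.891). Thus 4 of 6 members passed, where 58.5% of all genes did, and none was changed 2-fold, where 0.845% were. IAA replicate 8 was the highest IAA library for all 6 members. By DESeq2, 2 of the 4 passed, since Snhg1 (adjusted p 0.0528) and Snhg12 (adjusted p 0.0548) did not. One control and one IAA library came from another batch than the remaining 11 and 11, in which Snhg8 rose by 0.32, Snhg12 rose by 0.08, Gas5 fell by 0.05 (edgeR adjusted p 2.52e-09, 0.0197 and 0.0186) and Snhg1 was lower by a log2 fold change of -0.05 with an adjusted p of 0.0606.

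**Figure D5:**
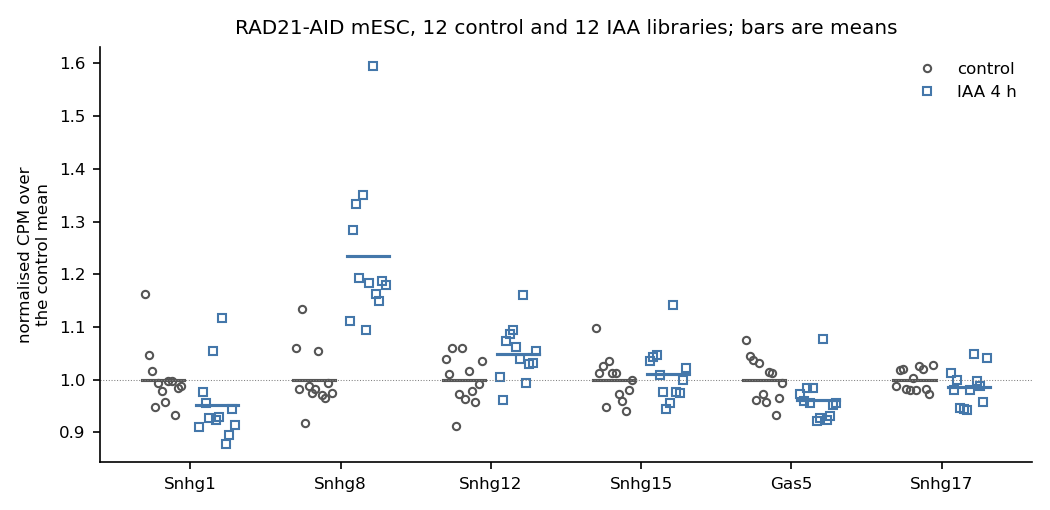
Normalised CPM divided by the control mean for the 6 host genes in 12 control and 12 IAA libraries of the additional RAD21-AID mESC experiment. For Snhg8, 10 of 12 IAA libraries lie above the highest control, while the groups overlap widely for Snhg15, Snhg17 and Gas5.

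In the initial RAD21-AID experiment 3 of 6 members passed, all higher, where 8.65% of all genes passed in either direction and 3.41% were higher. Snhg8 rose from 23.9 and 22.5 to 29.8 and 31.9 CPM (log2 fold change 0.41, SE 0.12, edgeR adjusted p 0.00798). Snhg12 rose from 83.8 and 76.0 to 96.8 and 102 (0.32, adjusted p 0.00145), and Gas5 from 366 and 325 to 400 and 414 (0.24, adjusted p 0.0347). Both IAA libraries lay above both controls in each case, and also for Snhg1 and Snhg15, which did not pass. The share of all genes apart in this way is not given here. Snhg1 was at 312 and 278 and then at 326 and 345 (0.19, edgeR adjusted p 0.129), Snhg15 at 147 and 136 and then at 160 and 168 (0.21, adjusted p 0.0567), and Snhg17 at 153 and 127 and then at 145 and 151 (0.08, adjusted p 0.625). Without either IAA library no member passed, without control replicate 2 only Snhg12 did, without control replicate 1 all 6 did, and DESeq2 called none. Snhg8 and Snhg12 had the same direction in both experiments, whereas Gas5 was higher in the initial and lower in the additional one, a difference that was not tested.

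In NPCs few hosts passed 1 h or 2 h after IAA was added to remove RAD21. At 1 h, Snhg12 alone passed, rising from 62.8 and 59.9 to 66.4 and 68.8 CPM (0.14, edgeR adjusted p 0.0448), where 16% of genes passed. That call was lost by DESeq2 and when any library was left out. Snhg17 was at 131 and 131 and then at 126 and 123 (-0.07, adjusted p 0.525). At 2 h none of 6 passed in edgeR, 1 had an unadjusted p under 0.05, none passed by DESeq2, and 14.6% of genes passed. Snhg17 was at 110 and 110 and then at 98.0 and 86.8 CPM, a log2 fold change of -0.25 (SE 0.07, adjusted p 0.0839). The 2 IAA libraries differed, and leaving out replicate 1 gave 4 calls, all lower (Snhg1 -0.32, Snhg15 -0.38, Gas5 -0.29, Snhg17 -0.35), while leaving out replicate 2 gave 2, both higher (Snhg8 0.37, Gas5 0.13).

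At 4 h in NPCs 5 of 6 members fell, where 39.5% of all genes passed and 21.1% were lower. Snhg1 fell from 169 and 151 to 118 and 111 CPM (-0.47, SE 0.05, 1.39-fold, edgeR adjusted p 4.22e-09). Snhg12 fell from 53.8 and 51.2 to 39.1 and 38.2 (-0.44, adjusted p 2.12e-06). Snhg17 fell from 112 and 112 to 86.6 and 84.0 (-0.39, SE 0.04, 1.31-fold, edgeR adjusted p 7.31e-08). In all of these both IAA libraries lay below both controls, as in Snhg15, Gas5 and Gm23925, of which Gm23925 did not pass. The share of all genes apart in this way is not given here. Snhg15 fell from 204 and 193 to 162 and 150 (-0.35, adjusted p 2.23e-07 in edgeR), and Gas5 from 177 and 162 to 143 and 146 (-0.23, adjusted p 0.0004). Snhg8 was at 24.4 and 23.9 and then at 24.5 and 20.7 (-0.09, adjusted p 0.619), with groups that overlapped. Snhg17 was here one of a group and neither the most nor the least changed, and none of the 6 reached 2-fold, where 3.57% did. Gm23925 was at 5.40 and 5.39 and then at 3.92 and 4.73 CPM (-0.32, edgeR adjusted p 0.215).

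With A-485 in NPCs, Snhg15 was the one member that passed as lower, by a change that 24.9% of all tested genes equalled or fell below. Snhg15 fell from 257 and 244 to 151 and 146 CPM after 1 h, by 0.76 on the log2 scale (SE 0.06, 1.69-fold, edgeR adjusted p 2.03e-07). Snhg12 rose from 67.7 and 64.6 to 94.0 and 94.9 (0.51, adjusted p 3.29e-07), and Snhg8 from 30.7 and 30.2 to 43.2 and 43.5 (0.51, adjusted p 3.57e-06). Both groups were fully apart for these 3 genes, and for Gas5, Snhg1 and Snhg17 as well, with 2 libraries each. The share of all genes with groups apart is not given here. Gas5 rose from 222 and 204 to 275 and 242 (0.28, edgeR adjusted p 0.00014), and Snhg1 from 212 and 190 to 239 and 234 (0.23, adjusted p 0.000185). These 5 calls compare with 67.7% of all genes, and none reached 2-fold, where 21% did. All values are relative to expressed genes, whose median of 0.12 on the log2 scale was removed, and the median of all genes tested was then -0.11. Snhg17 was at 142 and 141 and then at 136 and 118 (-0.15, edgeR adjusted p 0.727), a size close to that shift. On CPM without TMM or centring, the A-485 libraries lay 0.29 and 0.07 above the control mean on the log2 scale. Snhg17 thus changes direction with the scale. Without A-485 replicate 1 it passed (-0.26, adjusted p 0.0205).

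Between cell types, 5 of the 6 hosts were lower in NPCs than in mESCs. In NPC against the 12 additional mESC controls 3 of 6 members were at least 2-fold lower, where 18.7% of all genes were. Gas5 fell from 575, 617 and 661 CPM (lowest, median, highest) to 183 and 168 (-1.81, 3.51-fold, edgeR adjusted p 4.55e-38). Snhg1 fell from 408, 433 and 507 to 175 and 156 (-1.40, 2.64-fold, adjusted p 9.55e-32), and Snhg12 from 116, 128 and 136 to 55.8 and 53.1 (-1.23, 2.35-fold, adjusted p 4.5e-30). Snhg17 fell less, from 191, 195 and 202 to 117 and 116 (-0.76, 1.69-fold, edgeR adjusted p 2.48e-27), as did Snhg8, from 35.6, 38.2 and 44.0 to 25.3 and 24.8 (-0.63, 1.55-fold, adjusted p 2.46e-15). In these 5 genes both NPC libraries lay below every mESC control, and the share of all genes apart in this way is not given here. Snhg15 was at 197, 211 and 230 and at 212 and 200.3, inside the mESC range, with a log2 fold change of -0.02. Its adjusted p of 0.00437 tests the change before the median is removed, as all adjusted p here do, and 89.8% of genes passed that threshold. With the 2 initial mESC controls in place of the 12, Snhg15 was higher in NPCs (0.37, edgeR adjusted p 1.24e-06) and Snhg8 no longer passed (-0.06, adjusted p 0.667). The NPC libraries were one batch of 2, so cell type and batch cannot be told apart.

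CTCF-YF-AA controls were set against unstranded CTCF-AID controls, a comparison of 2 lines without depletion. Snhg17 was at 226.5 and 253 CPM in CTCF-AID and at 171 and 165 in CTCF-YF-AA (-0.51, edgeR adjusted p 0.000198). Snhg8 (-0.57, adjusted p 0.0028), Gas5 (-0.46, adjusted p 0.000158) and Snhg1 (-0.39, adjusted p 0.00126) were lower as well, whereas Snhg12 (-0.18, adjusted p 0.165) and Snhg15 (0.05, adjusted p 0.363) did not pass. Of the 6 members 4 passed, all lower, where 47.7% of genes passed and 23.2% were lower, and none passed when the stranded CTCF-AID controls were added with the library kit as a covariate. Without CTCF-AID control replicate 1 Snhg12 also passed (-0.25, edgeR adjusted p 0.0124), and without replicate 2 Snhg15 did (0.16, adjusted p 0.0104). On the TPM scale the Snhg17 means were 519.7 and 523.3, so the direction depends on the scale.

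The effect of 4 h of IAA differed between NPCs and the additional mESCs for 5 of 6 members, where 35.1% of 16430 genes passed the test of the difference. The difference, NPC minus mESC, was -0.50 for Snhg12 (edgeR adjusted p 8.61e-07), -0.39 for Snhg1 (adjusted p 0.000243), -0.38 for Snhg8 (adjusted p 0.0123), -0.36 for Snhg17 (adjusted p 6.95e-07) and -0.35 for Snhg15 (adjusted p 2.06e-05). Gas5 differed by -0.16 (adjusted p 0.0952).

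Genes that followed Snhg17 most closely were sought over all 60 libraries, each set against the controls of its own experiment, among 11498 genes. The highest Pearson correlations were those of Csnk2a2, a catalytic subunit of casein kinase 2 (0.985), Det1, part of a ubiquitin ligase (0.978), the GTPase Rab12 (0.973), Saal1 (0.969) and Pabpc4, a poly(A)-binding protein (0.967). These are descriptions over libraries that share controls and treatments, and 459 genes had a correlation over 0.5. The other 5 hosts lay between -0.13 (Snhg12) and 0.15 (Snhg8), and Gm23925 was at 0.963. Csnk2a2 had log2 fold changes of -1.89 in CTCF-AID, -1.33 and -1.39 at 2 h and 4 h in CTCF-YF-AA, -1.31 with AGB1, 0.03 with dTAG-13 and -1.62 with both. Det1 had -2.79, -1.91, -2.15, -1.59, 0.01 and -2.05 in the same order. Csnk2a2 and Det1 were lower in all CTCF comparisons but dTAG-13, as Snhg17 was. That follows from their choice by correlation with Snhg17, whose largest deviations lay in those libraries, and is no separate result. Both fell by less than Snhg17 in each of those comparisons. Saal1 did not, with -2.007 at 2 h in CTCF-YF-AA against -2.003 for Snhg17.

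Among the genes around the hosts and the pathway they serve, few followed Snhg17. Snhg11 starts 14128 bases from Snhg17 on the other strand and had log2 fold changes of 0.00 in CTCF-AID (edgeR adjusted p 0.946) and -0.56 at 4 h in CTCF-YF-AA (adjusted p 0.22). Ralgapb, 48338 bases away, had -0.11 (adjusted p 0.609) and 0.02 (adjusted p 0.972). Neither passed in any CTCF depletion. In CTCF-YF-AA against unstranded CTCF-AID controls, without depletion, Snhg11 had a log2 fold change of -1.48 (2.79-fold lower, edgeR adjusted p 3.13e-06). In that comparison 23.2% of all genes passed as lower. A fit of Snhg11 with the stranded CTCF-AID controls added is not given here. Of 14 further noncoding hosts, 7 had a row and 6 were tested in mESCs. Epb41l4aos fell in CTCF-AID by 1.13 (2.20-fold, edgeR adjusted p 0.00574, where 3.58% of genes passed), in CTCF-YF-AA by 0.82 at 2 h and 1.15 at 4 h (adjusted p 3.1e-10 and 5.24e-12), with AGB1 by 0.83 and with both by 1.17 (adjusted p 5.8e-07 and 2.13e-10). With dTAG-13 it had a log2 fold change of 0.05 (adjusted p 0.999). It was the one further noncoding host called at 2-fold in CTCF-AID, where 1.45% of genes were, and its mean level went from 662 to 300.4 TPM. Snhg10 fell by 0.85 with AGB1 (edgeR adjusted p 0.00168), a call that DESeq2 did not make (adjusted p 0.0656), and had -0.31 with both (adjusted p 0.318).

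Protein-coding hosts carry snoRNAs in the introns of ribosomal protein and translation factor genes, and 35 rows of 34 of them were tested. In CTCF-AID 0 passed in edgeR, where 3.58% of all genes did, with 3 at an unadjusted p under 0.05 and 2 lower by DESeq2. Their median log2 fold change was 0.03, against 0.02 over all genes. In edgeR, 1 rose and 2 fell at 2 h in CTCF-YF-AA and 1 fell at 4 h, where 3.94% and 4.99% of all genes passed. The median at 4 h was -0.06, against 0.01 over all genes, with 11 at an unadjusted p under 0.05. With AGB1 1 fell (2.14% of all genes), with dTAG-13 0 passed (0.0808%), and with both 4 rose and 1 fell (6.59%). DESeq2 called 2 higher and 1 lower with both. Rpl5, a protein of the large ribosomal subunit, had the lowest value in each CTCF comparison but dTAG-13. It fell by 0.60 at 2 h and 0.60 at 4 h in CTCF-YF-AA (edgeR adjusted p 1.95e-21 and 3.24e-13), by 0.45 with AGB1 and by 0.60 with both (adjusted p 8.87e-08 and 5.82e-10), and had -0.49 in CTCF-AID (adjusted p 0.135). After 4 h of IAA in NPCs 27 of 35 rows fell, where 21.1% of all genes did, and none rose (median -0.28, against -0.02 over all genes). In NPC against mESC 34 of 35 were lower, where 44.4% of all genes were (median -0.96, against 0.11). With A-485 18 of 35 rose, where 32.4% of all genes did, and none fell. In the additional mESC experiment 15 fell, where 28.1% of all genes did, and 1 rose, so that 16 of 35 passed against 58.5% of all genes. In the initial one 4 rose (0 by DESeq2), where 3.41% of all genes did.

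The snoRNP proteins, which bind and protect the small RNAs, are Fbl, Nop56, Nop58 and Snu13 for box C/D and Dkc1, Nhp2, Nop10 and Gar1 for box H/ACA. None of the 8 passed in CTCF-AID by edgeR (2 at an unadjusted p under 0.05, 1 lower by DESeq2). None passed at 4 h in CTCF-YF-AA (2 unadjusted, 0 by DESeq2) and none with AGB1 (0 unadjusted, 0 by DESeq2). Over all genes 3.58%, 4.99% and 2.14% passed in edgeR in the same order, so that 0 of 8 lies close to the background in each. With both compounds, where 6.59% of all genes passed, Dkc1 rose by 0.21 (edgeR adjusted p 0.0134), a call that DESeq2 did not make. After 4 h of IAA in NPCs 7 of 8 fell (4 by DESeq2), where 21.1% of all genes did, with Dkc1 at -0.60 (adjusted p 6.04e-08) and Fbl, the methyltransferase, at -0.55 (adjusted p 3.51e-08). All 8 were lower in NPC than in mESC, where 44.4% of all genes were. In the additional mESC experiment 7 of 8 fell, where 28.1% of all genes did (median -0.07, against 0.03 over all genes). Of the snoRNP assembly factors, 3 of 10 rows fell at 4 h in NPCs, 8 fell and 1 rose in the additional mESC experiment, and 7 rose with A-485 (3 by DESeq2), against 21.1% lower, 28.1% lower and 32.4% higher over all genes. Of the 8 NMD factors, edgeR and DESeq2 called 0 in each CTCF depletion, where edgeR called 0.0808% to 6.59% of all genes. At most 1 of these factors had an unadjusted p under 0.05 in edgeR. They had 3 lower and 2 higher at 4 h in NPCs, where 39.5% of all genes passed, and 6 lower and 2 higher in NPC against mESC, where 89.8% did.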

How the data were processed

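EU-seq was analysed from 1 table of raw counts over the gene bodies of representative transcripts (27665 rows, 62 columns, 60 libraries). Per the labels and methods, BWA placed the reads on mm10, and the authors kept a mapping quality of at least 10 with SAMtools 1.4, removed rRNA and tRNA reads with bedtools and obtained the deposited counts with HTSeq; whether strand was used is not given in the sources used here. Columns for 1 h in NPCs were counted over at most 90 kb of each gene, for the same 2 control libraries as well. Rows were named through GENCODE M21, with 27455 matched (159 without the version) and 210 unmatched; 0 matched rows were typed as small RNA.

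Each comparison was fitted on the whole table with edgeR 4.0.16 (R 4.3.3; TMM, quasi-likelihood F test, Benjamini-Hochberg over all genes with a mean count over 20 in a group). Log2 fold changes were centred on genes with a mean TPM over 15, while adjusted p refers to the uncentred change. A call of 2-fold also needed an adjusted p under 0.05. Controls of shared comparisons were scaled within each comparison. In CTCF-AID, same-numbered libraries of a kit deviated together (r from 0.476 to 0.811 over 4 pairs); a fit with the replicate block gave Snhg17 -3.11 in place of -3.15. Alternatives were DESeq2 1.42.0, other normalization, no low-count filter, a replicate block, kits or batches apart, other controls, and each library left out. The fits were tested on simulated data. The test of the NPC and mESC difference, the AGB1 and dTAG-13 contrast and one motif were added after the data had been seen, and the members and gene lists were chosen with earlier results of these data known. All members, rows overlapping them, the 5 genes most like Snhg17 and list genes called 2-fold in a CTCF comparison were named. List genes with the largest change of their list were named in some comparisons only, and no snoRNP assembly or NMD factor was. Ralgapb and Snhg11 are the neighbours of Snhg17 within 100 kb tested in mESCs. Fbl, Snhg10 and the shorter Rcc1 row were added after their values were seen.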

Additional observations from a re-analysis of the deposited data

Results flagged for a closer look

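For 5 host genes the response to 4 h of IAA differed between RAD21-AID NPCs and the additional RAD21-AID mESCs in a test of the difference itself. The difference on the log2 scale, NPC minus mESC, was -0.39 for Snhg1, -0.38 for Snhg8, -0.50 for Snhg12, -0.35 for Snhg15 and -0.36 for Snhg17. By edgeR, Snhg8 rose in mESCs and did not pass in NPCs, and Snhg15 and Snhg17 passed in NPCs alone. Snhg1 and Snhg12 fell in NPCs. In mESCs they had log2 fold changes of -0.07 and 0.07, which passed by edgeR but not by DESeq2. Cell type and experiment cannot be told apart, since all NPC libraries were of one batch and 12 mESC libraries a group stood against 2 in NPCs.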

How the results depend on the processing

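Over all alternatives, 234 counts stayed within 1.5 times of the main count. For single values, 804 kept their side of the threshold or, where untested, moved by less than 1 SD. Sign was not compared for tested values that passed in neither fit. A further 18 counts moved by over 1.5 times, while 28 single values lost and 14 gained the threshold. Another 4 untested values moved by over 1 SD, and 2 values that passed in the main fit changed sign. Counts of members with an adjusted p under 0.05 in edgeR moved as follows. In the initial RAD21-AID mESC experiment the count of 3 became 0 by DESeq2 and 0 to 6 with 1 library left out. In the additional experiment 4 became 2 by DESeq2. In NPCs at 1 h, 1 became 0 by DESeq2, without a low-count filter, with a replicate block and with any library left out (0 to 0). At 2 h, 0 became 1 without a filter, 1 with the replicate block (Snhg17, adjusted p 0.0183), and 0 to 4 with 1 library left out. In CTCF-YF-AA against CTCF-AID controls 4 became 0 with all 4 CTCF-AID controls and the library type. Snhg17 in CTCF-AID had -3.41 in unstranded and -2.88 in stranded libraries, and -3.30 to -3.04 with 1 library left out. Snhg15 in NPC against mESC ranged from -0.066 to 0.023 with 1 NPC control left out, turning positive without replicate 2, and was 0.37 with the 2 initial mESC controls, where Snhg8 no longer passed (-0.06, adjusted p 0.667). The causes were not tested. Outside CTCF-AID the libraries share only a number: r over same-numbered pairs was -0.0058 to 0.273 in the additional RAD21-AID experiment, with 1 of 12 over 0.1, and -0.0797 to 0.134 elsewhere, and the replicate block moved no further count beyond 1.5 times.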

Other observations

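Rows at the Snhg3 locus (chr4:132348014-132353686, minus strand, GRCm38) were examined after their values had been seen, since Snhg3 has no row of its own. A long transcript of Rcc1, the exchange factor of the GTPase Ran, overlaps 63.9% of the locus on the same strand, and Gm17300 overlaps 28.4% on the opposite strand. The long Rcc1 row fell by 0.41 at 2 h and 0.47 at 4 h in CTCF-YF-AA (edgeR adjusted p 5.21e-10 and 9.81e-10) and had -0.08 with AGB1 (adjusted p 0.524). A shorter Rcc1 row that does not overlap Snhg3 fell by 1.13 and 1.12 in CTCF-YF-AA (adjusted p 1.24e-37 and 1.61e-17), by 0.64 in CTCF-AID (adjusted p 0.0168), by 0.49 with AGB1 (adjusted p 4.45e-06) and by 0.81 with both compounds (adjusted p 3.33e-11). It starts 37124 bases from Snhg12 and was the one neighbour within 100 kb of a member that was called at 2-fold in a CTCF depletion. Gm17300 had 5196 and 5368 reads in unstranded and 12 and 10 in stranded CTCF-AID controls, and 0 to 6 in all libraries of the dN/dC line.

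Zbtb37 overlaps 243 bases of Gas5 on the opposite strand (6.18% of Gas5). It had a log2 fold change of -0.58 with A-485 (edgeR adjusted p 4.37e-05), where Gas5 rose by 0.28.

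Snhg18, a further noncoding host, was at a mean of 1.41 TPM in mESC and 78.9 TPM in NPC controls, higher by 5.77 on the log2 scale (edgeR adjusted p 1.62e-35), while the 6 host genes of the report were level or lower in NPC. It fell by 0.93 with A-485 (adjusted p 1.03e-05). Snhg11 rose by 0.48 after RAD21 loss in the additional mESC experiment (adjusted p 8.28e-15).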
